A study of Homo sapiens with 3 samples.

Results

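The splicing factor genes described here are 59 named genes of the spliceosome and its regulators: 15 SR and SR-related genes, 19 hnRNP genes with PTBP1 among them, 10 genes of the U2 snRNP and U2AF, 7 of the Sm core, 3 of the U1 snRNP and 5 of the tri-snRNP and the PRPF19-associated complex. They were chosen by symbol, and all 59 were found among the 50868 genes of the deposited table. The filter on level, a mean of at least 1 FPKM (fragments per kilobase, scaled to sequencing depth) over the libraries, kept 58 of them and 11103 genes in all. U2AF1 was the member that did not pass.

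RNA sequencing was done on HGC-27, an established human gastric cancer cell line, which had been transfected 48 h earlier with siRNA against YAP, siRNA against IRF3 or a control siRNA. All 3 groups were HGC-27 cells at passage 6, and each group was 1 library. IRF3 is a transcription factor of the innate antiviral response, and YAP is a coactivator that works with TEAD factors downstream of the Hippo pathway. No group has replicates, so no p-value is given and every difference below compares single libraries. The intervals given cover counting error only.

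Introns are removed by the spliceosome, which is built on each intron from small nuclear ribonucleoproteins (snRNPs). The U1 snRNP binds the 5′ splice site, U2AF and the U2 snRNP bind the 3′ end of the intron and its branch site, and the tri-snRNP then joins and brings the catalytic core. SR proteins bind exons and mostly favour the use of nearby splice sites, and hnRNP proteins coat nascent RNA and often oppose them. Sm proteins form the ring that every major spliceosomal snRNA except U6 carries.

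Library totals were 13949401 counts with control siRNA, 14941556 with IRF3 siRNA and 14385959 with YAP siRNA. YAP1, the targeted gene of the YAP siRNA, stood at 5.89 FPKM with control siRNA, 2.23 with YAP siRNA and 3.58 with IRF3 siRNA. IRF3 stood at 3.55 FPKM with control siRNA, 2.90 with IRF3 siRNA and 3.86 with YAP siRNA, a scaled count ratio of 0.818 (95% interval 0.732 to 0.915) for IRF3 siRNA against control. IRF3 RNA was thus only slightly lower in the library labelled IRF3 siRNA. Summing counts with all genes linked to IRF3 by a chain of overlapping exons brought its log2 ratio to -0.02. Of 10 epithelial markers, 1 passed the filter, and the list summed to between 3.47 and 4.27 FPKM per library, with EPCAM at 0.162 FPKM or less and CDH1 at 0.0297 or less. Of 10 gastric lineage markers, GATA4 and GATA6 passed and 5 had no count in any library. Of 8 mesenchymal markers, 5 passed, with VIM between 451 and 511 FPKM, and of 9 fibroblast markers, 8 passed, with sums between 760.5 and 883 FPKM. Leukocyte markers passed in 2 of 7 cases and endothelial markers in none of 5. The part of these lists in the results below was not tested. In bulk RNA, fewer cells of a type and less RNA per cell cannot be told apart.

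Most of the splicing factor genes lay close to their control level with both siRNAs. SRRM2, a very large SR-related protein of nuclear speckles, was about 4 times lower in counts with IRF3 siRNA and less so with YAP siRNA. SON, a nuclear speckle scaffold, and SF3B1, the branch-site subunit of the U2 snRNP, were lower with either siRNA. All 7 Sm core genes were higher with either siRNA, by a smaller amount. The IRF3 siRNA and YAP siRNA libraries were both set against the same control library, so the value of that library enters both sets of ratios.

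The log2 ratio of FPKM plus 1 had a median of -0.05 over the 58 members with YAP siRNA against control, beside -0.02 over all genes kept. Above 0 were 26 of 58 members with YAP siRNA (46.5% of all genes kept) and 31 of 58 with IRF3 siRNA (46.1%). Scaled by TMM, an alternative normalization, 34 and 36 of 58 were above 0, beside 56.9% and 57.0% of all genes. After removal of a spline trend in length and GC content, 40 and 46 of 58 were above 0, beside 53.0% and 52.4%, and with level in the trend too, 34 and 33, beside 52.4% and 52.0%. With IRF3 siRNA against control the medians were 0.05 and -0.03, and with IRF3 siRNA against YAP siRNA they were 0.04 and -0.01. Past 2-fold, 1 member was lower with YAP siRNA (SON; 0.468% of all genes kept were lower by this rule) and none was higher (0.351%). With IRF3 siRNA, 2 members were lower past 2-fold, SRRM2 and SON (0.612% of all genes), and none was higher (0.387%). In the direct comparison of IRF3 siRNA with YAP siRNA, 1 was lower, SRRM2 (0.315%), and none was higher (0.297%). At 1.5-fold, SF3B1 joined the lower members with both siRNAs, for 2 of 58 with YAP siRNA (4.64% of all genes) and 3 of 58 with IRF3 siRNA (5.88%). SNRPD2 alone was higher past 1.5-fold, with IRF3 siRNA (1.59%). In the direct comparison SRRM2 was the one member lower past 1.5-fold (1.28% of all genes), and none was higher (1.18%).

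A smaller shift can be told from counting error at these depths. With YAP siRNA the count interval lay above 1 for 21 members and below 1 for 22 (22.2% and 30.2% of all genes kept). With IRF3 siRNA it lay above 1 for 23 and below 1 for 24 (24.3% and 32.6%). For IRF3 siRNA against YAP siRNA it lay above 1 for 21 and below 1 for 9 (16% and 15.6%). The last comparison thus had more members on the higher side than on the lower. There, 40 of 58 members had a log2 ratio above 0 and 18 below, beside 48.2% and 51.8% of all genes kept.

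**Figure D1:**
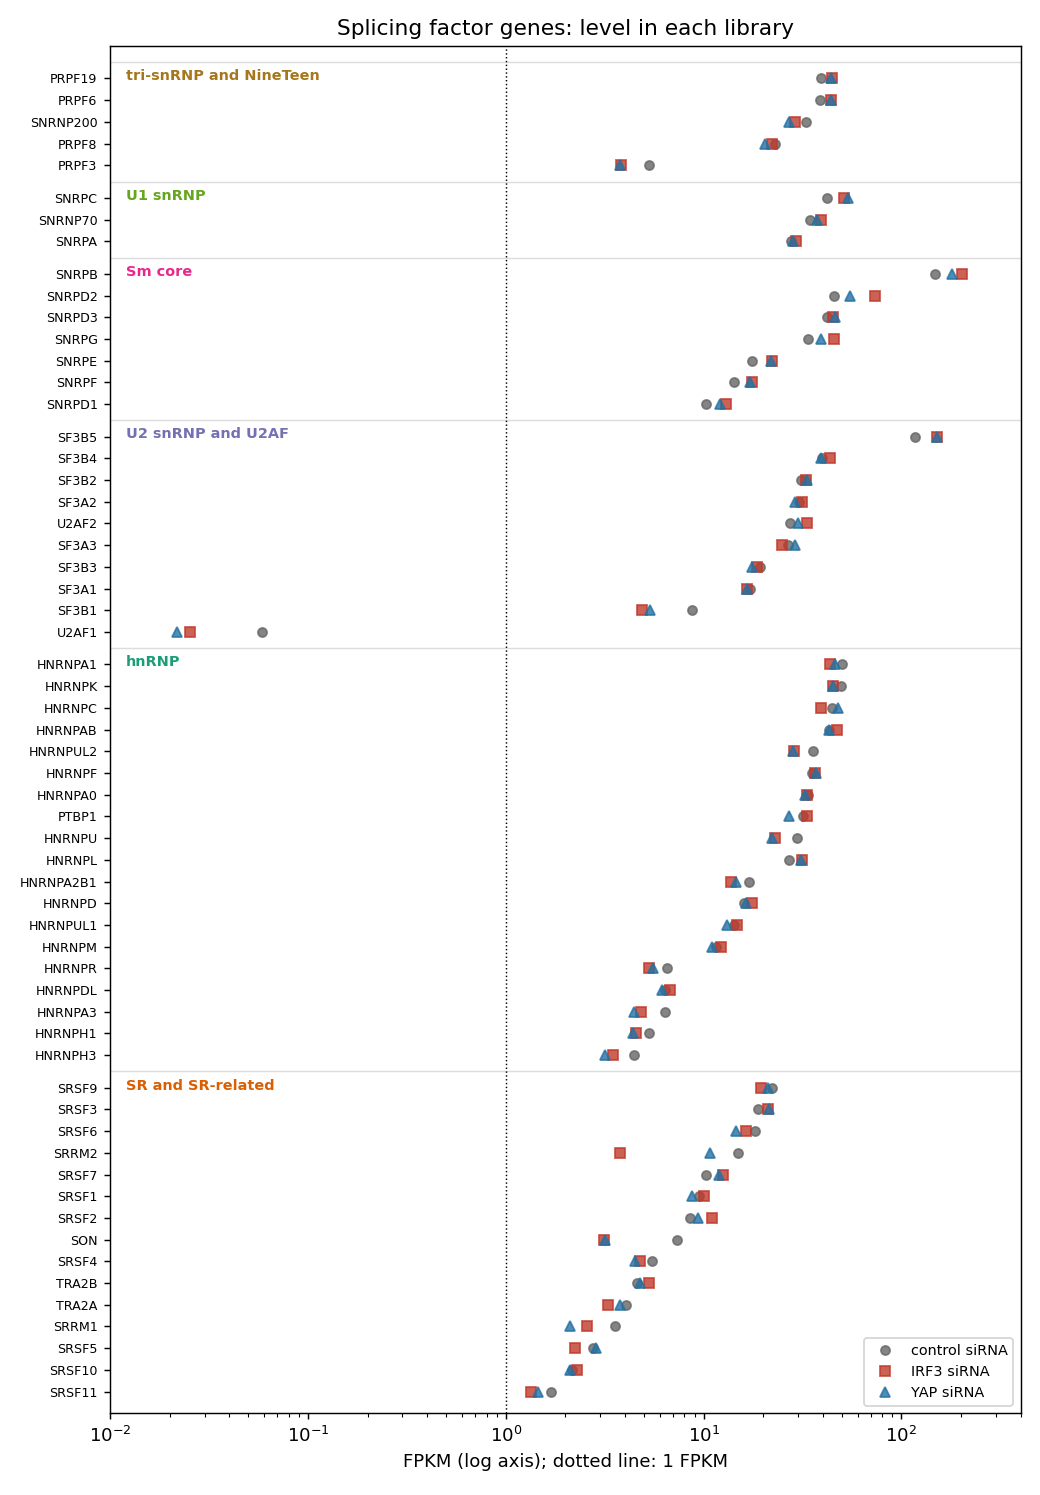
FPKM of each of the 59 splicing factor genes (log axis) in the control siRNA, IRF3 siRNA and YAP siRNA libraries, 1 point per library, grouped by class. Most triplets of points overlap; SRRM2 stands apart in the IRF3 siRNA library (3.77 FPKM), and U2AF1 lies below the dotted line at 1 FPKM.

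The levels spanned a wide range. With control siRNA the 58 members lay between 1.69 FPKM (SRSF11) and 147 FPKM (SNRPB), with a median of 19.1, and together they held 1.16% of all counts. With IRF3 siRNA they held 1.12% of counts and with YAP siRNA 1.12%. The highest members by FPKM with control siRNA were SNRPB, SF3B5 (117 FPKM), HNRNPA1 (50.1), HNRNPK (49.3) and SNRPD2 (45.9). The lowest that passed the filter were SRSF11, SRSF10 (2.15), SRSF5 (2.75) and SRRM1 (3.56). These ranks depend on the length the authors divided by, which is not given and was not the annotated exon length for every gene. With control siRNA, HNRNPC had 13472 counts over 7309 bases of exon and 44.8 FPKM. SF3B5 had 1130 counts over 693 bases and 117 FPKM. Ranks between genes are therefore uncertain.

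Among the SR and SR-related genes, the median log2 ratio was -0.08 with YAP siRNA and -0.17 with IRF3 siRNA, with 5 and 6 of 15 above 0. Both medians turned with the trend in length, GC content and level removed, to 0.05 and 0.13, and with that in length and GC content removed, to 0.03 and 0.11. SRRM2 (ENSG00000167978, chr16:2752329-2772538, hg38) had 14.85 FPKM with control siRNA, 3.77 with IRF3 siRNA and 10.8 with YAP siRNA; the counts were 6747, 1835 and 5068. The IRF3 siRNA library was the lowest by far, and the YAP siRNA library lay between it and the control. Its log2 ratio was -1.73 with IRF3 siRNA, -0.42 with YAP siRNA, and -1.31 for IRF3 siRNA against YAP siRNA. The count ratio was 0.254 (95% interval 0.241 to 0.267) with IRF3 siRNA, 0.728 (0.702 to 0.756) with YAP siRNA, and 0.349 (0.330 to 0.368) between IRF3 and YAP siRNA. SRRM2 shares 190 bases of exon with TCEB2 on the opposite strand, a subunit of the elongin complex with 2468 counts in the control library. With counts summed over SRRM2, TCEB2 and SRRM2-AS1 the log2 ratio was -1.07 with IRF3 siRNA, -0.22 with YAP siRNA and -0.85 between IRF3 and YAP siRNA. The last no longer passed 2-fold.

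SON (ENSG00000159140, chr21:33542618-33577481) had 7.35 FPKM with control siRNA, 3.15 with IRF3 siRNA and 3.16 with YAP siRNA; the counts were 2208, 1014 and 979. Both siRNA-targeted libraries lay at the same level, below the control. The log2 ratio was -1.01 in each, and 0.00 between them. The 2-fold call is at its margin: centred on the median gene the ratios did not reach it. SON shares 307 bases of exon with DONSON and 275 with GART on the opposite strand, and GART had 2777, 3110 and 3063 counts. DONSON had 330, 295 and 342 counts with control, IRF3 and YAP siRNA. Summing took in every gene linked to SON by a chain of shared exons, so more than SON, DONSON and GART. That sum had a log2 ratio of -0.08 with YAP siRNA and -0.12 with IRF3 siRNA. A sum of SON, DONSON and GART alone was not computed. No source used here gives the strand setting of the counting, so reads of the shared bases cannot be assigned.

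SRRM1, a splicing coactivator of the same SR-related family, had 3.56, 2.56 and 2.11 FPKM with control, IRF3 and YAP siRNA. Its count ratio was 0.591 with YAP siRNA and 0.719 with IRF3 siRNA, and 1.22 in the direct comparison, so the YAP siRNA library was lowest here, the reverse of SRRM2. No classical SR gene passed 1.5-fold. SRSF2 had log2 ratios of 0.12 with YAP siRNA and 0.33 with IRF3 siRNA, and SRSF7 0.20 and 0.26. SRSF6 had -0.29 and -0.13. SRSF3, a small SR protein that also aids mRNA export, had 18.9, 21.2 and 21.4 FPKM with control, IRF3 and YAP siRNA. SRSF1, the founding member of the family, had 9.46, 10.1 and 8.71 FPKM. The remaining SRSF4, SRSF10 and SRSF11 had log2 ratios between -0.23 and 0.06 with the 2 siRNAs. TRA2A and TRA2B, a pair of paralogous exon-inclusion activators, stood on opposite sides with IRF3 siRNA, at -0.24 and 0.17. SRSF5 was lowest in the IRF3 siRNA library, at 2.25 FPKM beside 2.75 in control and 2.86 with YAP siRNA. SRSF9 shares 1729 bases with GATC. With control and IRF3 siRNA, SRSF9 had 1954 and 1836 counts and GATC 374 and 475. Summing over all genes linked by shared exons, more than this pair, moved the IRF3 siRNA ratio from -0.18 to 0.13.

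**Figure D2:**
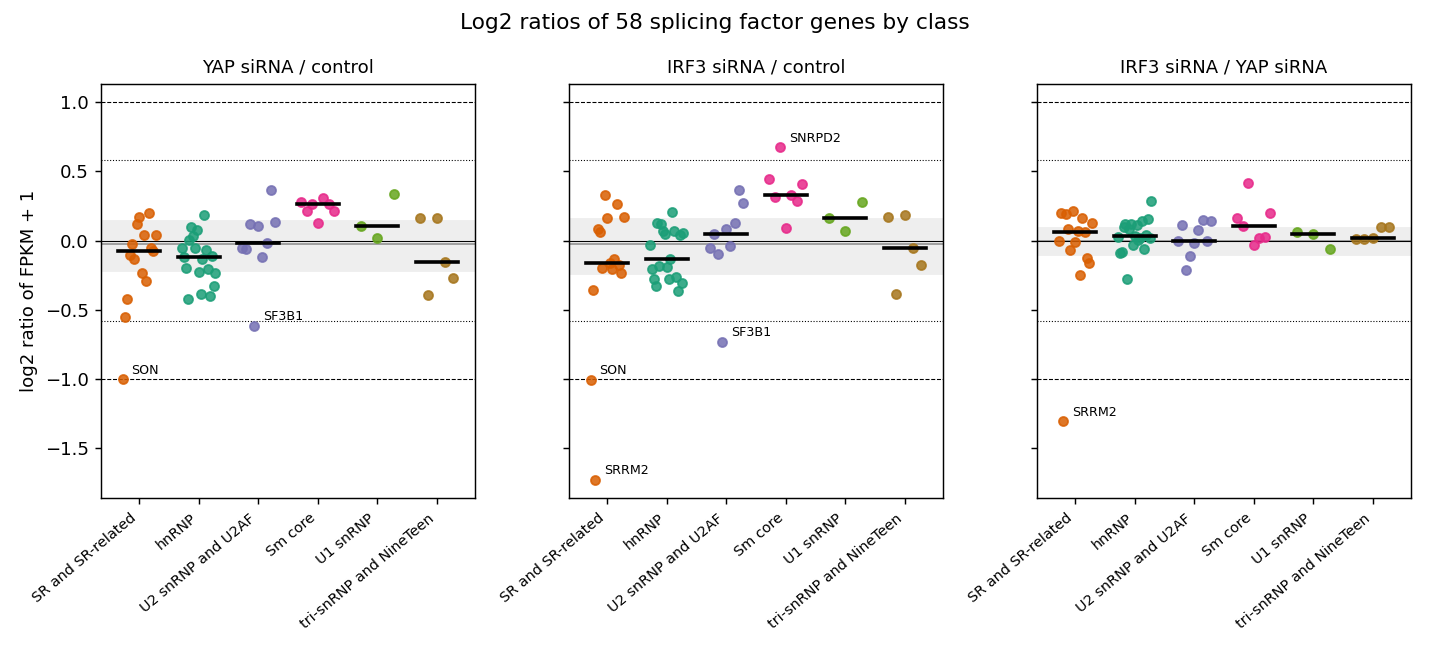
Log2 ratio of FPKM + 1 of 58 splicing factor genes in 3 comparisons, 1 point per gene, by class; black bars are class medians, the grey band is the middle 50% of all genes kept, dashed and dotted lines mark 2-fold and 1.5-fold. SRRM2 (-1.73 with IRF3 siRNA) and SON (-1.01 in both) lie lowest, and the 7 Sm core genes lie above 0 in both comparisons with control; in the direct comparison SNRPD3 is at -0.04.

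The hnRNP genes had median log2 ratios of -0.12 with YAP siRNA and -0.13 with IRF3 siRNA, with 5 and 8 of 19 above 0, and none passed 1.5-fold in either direction. The medians turned to 0.04 and 0.09 with the trend in length and GC content removed. With level in the trend too they stayed below 0, at -0.04 and -0.01, and with TMM they were -0.03 and -0.03. Between the 2 siRNA-targeted libraries the median was 0.03, with 14 of 19 above 0. HNRNPU, a nuclear matrix-associated RNA-binding protein, had 29.7 FPKM with control siRNA, 22.9 with IRF3 siRNA and 22.3 with YAP siRNA, log2 ratios of -0.36 and -0.40. HNRNPA3 had log2 ratios of -0.43 with YAP siRNA and -0.33 with IRF3 siRNA. HNRNPUL2 stood at -0.33 and -0.31, and HNRNPH3 at -0.39 and -0.28. These 4 genes had the lowest ratios of the class with YAP siRNA, HNRNPA3 first. HNRNPA2B1 and HNRNPR had -0.20 with YAP siRNA, and -0.28 and -0.27 with IRF3 siRNA. HNRNPH1 had -0.23 and -0.19, and HNRNPK, a poly(C)-binding member, -0.13 and -0.13. HNRNPA0, HNRNPAB, HNRNPD, HNRNPDL, HNRNPF, HNRNPM and HNRNPUL1 all lay between -0.11 and 0.12 with the 2 siRNAs. HNRNPL was the highest of the class in both, at 0.19 with YAP siRNA and 0.21 with IRF3 siRNA. HNRNPC was lowest with IRF3 siRNA, with 44.8, 39.3 and 48.0 FPKM with control, IRF3 and YAP siRNA. PTBP1, a repressor of exon inclusion, was lowest with YAP siRNA, with 31.9, 33.2 and 27.0 FPKM in that order, and its direct log2 ratio was 0.29.

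Several hnRNP genes have processed copies elsewhere in the genome that can take their reads. The 75 copies of HNRNPA1 held between 66.6% and 67.7% of the counts of gene and copies together, and the 16 copies of HNRNPA3 between 62.6% and 67.2%. Levels of both genes are therefore uncertain. Summed with copies, the HNRNPA3 count ratio was 0.802 with YAP siRNA and 0.780 (0.731 to 0.833) with IRF3 siRNA, and that of HNRNPA1 0.939 and 0.893. Both genes were still lower than in the control library by this measure.

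The Sm core genes were higher in both siRNA-targeted libraries. Of 7 genes, 7 had a count interval above 1 with YAP siRNA and 7 with IRF3 siRNA, beside 22.2% and 24.3% of all genes kept. Their summed level was 311 FPKM with control siRNA, 418 with IRF3 siRNA and 371 with YAP siRNA. Their median log2 ratio was 0.26 with YAP siRNA and 0.33 with IRF3 siRNA, and in the direct comparison it was 0.10, with 6 of 7 above 0. SNRPD2 had 45.9 FPKM with control siRNA, 73.9 with IRF3 siRNA and 55.2 with YAP siRNA. Its IRF3 siRNA library stood highest, and the count ratio was 1.61 (1.53 to 1.70) against control and 1.34 against YAP siRNA. SNRPB had 147, 201 and 179 FPKM with control, IRF3 and YAP siRNA, in that order the same ranking. SNRPD3 was nearest to control, at 42.1, 44.9 and 46.1 FPKM, and SNRPG had 33.9, 45.4 and 39.4. SNRPD1 had 10.3, 13.0 and 12.1 FPKM, the lowest level of the ring genes, SNRPE 17.5, 22.2 and 21.9, and SNRPF 14.2, 17.5 and 17.2. Processed copies of SNRPE held about as much of its counts in each library, between 29.5% and 31.2%. After removal of a spline trend in exon length, GC content and level, the Sm core medians were 0.15 and 0.34, and SNRPD3 with IRF3 siRNA was at -0.01.

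**Figure D3:**
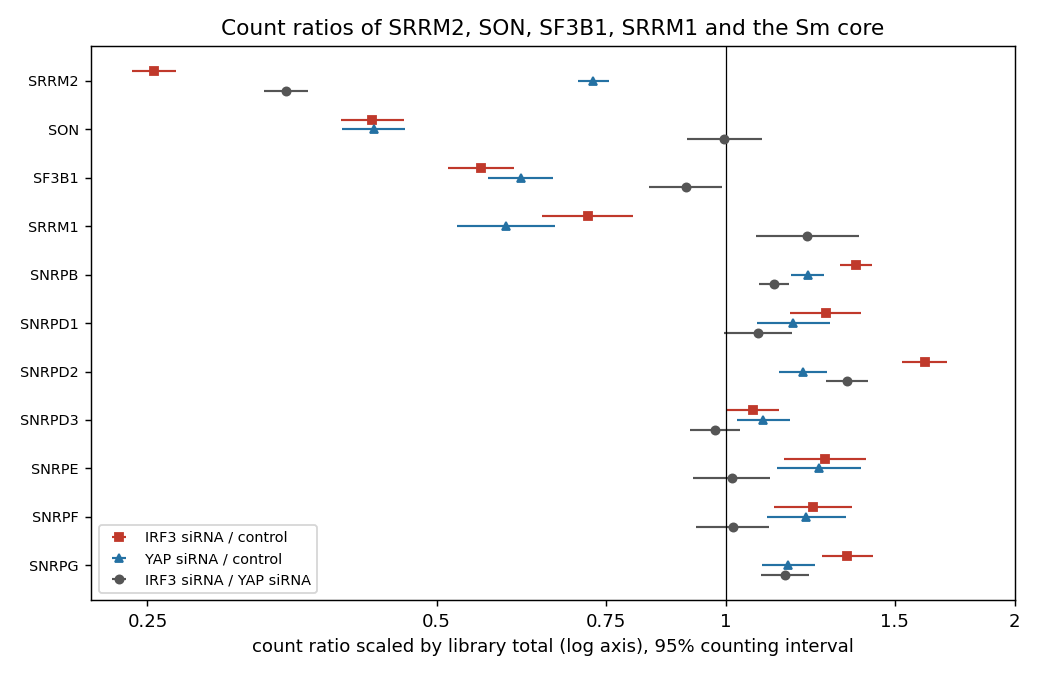
Count ratios scaled by library total (log axis) of SRRM2, SON, SF3B1, SRRM1 and the 7 Sm core genes in 3 comparisons, with 95% counting intervals and a line at 1. SRRM2 with IRF3 siRNA lies at 0.254, and SNRPD2 with IRF3 siRNA at 1.61.

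In the U2 snRNP and U2AF class, the median log2 ratio was -0.02 with YAP siRNA and 0.05 with IRF3 siRNA over the 9 members kept. SF3B1 had 8.79 FPKM with control siRNA, 4.89 with IRF3 siRNA and 5.37 with YAP siRNA, so both siRNA-targeted libraries were lower. The log2 ratios were -0.62 with YAP siRNA and -0.73 with IRF3 siRNA, and the count ratios 0.612 and 0.556. SF3B5, a small subunit, had 117 FPKM with control siRNA and 151 with each siRNA. SF3A3 was lowest with IRF3 siRNA, with 26.7, 24.9 and 29.02 FPKM. SF3A1, SF3A2, SF3B2, SF3B3 and SF3B4, the remaining SF3a and SF3b subunits among the members, lay between -0.12 and 0.12. U2AF2, the large U2AF subunit that binds the polypyrimidine tract, had log2 ratios of 0.13 and 0.27. U2AF1, the small subunit that binds the 3′ splice site, had 13, 6 and 5 counts. The near-identical gene U2AF1L5 had 11, 7 and 8 counts, so the authors' counting could have split or dropped their reads, and the U2AF1 level is uncertain.

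The 3 U1 snRNP genes were at or above control with both siRNAs. SNRPC had 42.0 FPKM with control siRNA, 51.1 with IRF3 siRNA and 53.4 with YAP siRNA. SNRNP70 had log2 ratios of 0.10 with YAP siRNA and 0.16 with IRF3 siRNA, and SNRPA 0.02 and 0.07, which became -0.15 and -0.14 with the trend in length, GC content and level removed. In the class of the tri-snRNP and the PRPF19-associated complex, PRPF3, a U4/U6 component, had 5.30, 3.83 and 3.79 FPKM with control, IRF3 and YAP siRNA. SNRNP200, the helicase that unwinds U4 from U6, had log2 ratios of -0.27 with YAP siRNA and -0.18 with IRF3 siRNA. PRPF8, at the catalytic centre, had -0.16 and -0.06. PRPF6 and PRPF19, which forms the core of the complex named after it, had 0.17 and 0.16 with YAP siRNA.

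The log2 ratios ran against exon length. Across the 58 members, which share the libraries, Pearson's r between log2 ratio and log2 union exon length was -0.65 with YAP siRNA and -0.61 with IRF3 siRNA, beside -0.31 and -0.28 over all genes kept. Between the siRNA-targeted libraries it was -0.24, beside 0.01. Without SRRM2 and SON the values were -0.63 with YAP siRNA and -0.62 with IRF3 siRNA, but -0.14 between the siRNA-targeted libraries, and -0.15 there without SRRM2 alone. The 20 shortest members had a median log2 ratio of 0.14 with YAP siRNA and 0.18 with IRF3 siRNA, where all genes of that length range had 0.06 and 0.06. The 19 longest had -0.20 and -0.19, where all genes of that range had -0.18 and -0.20. After removal of the trend in length, GC content and level, SF3B1 stood at -0.38 with YAP siRNA and -0.44 with IRF3 siRNA, and SON at -0.69 and -0.65. SRRM2 stood at -0.28 and -1.63. The part of exon length, and of anything that goes with it, in these ratios was not tested.

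**Figure D4:**
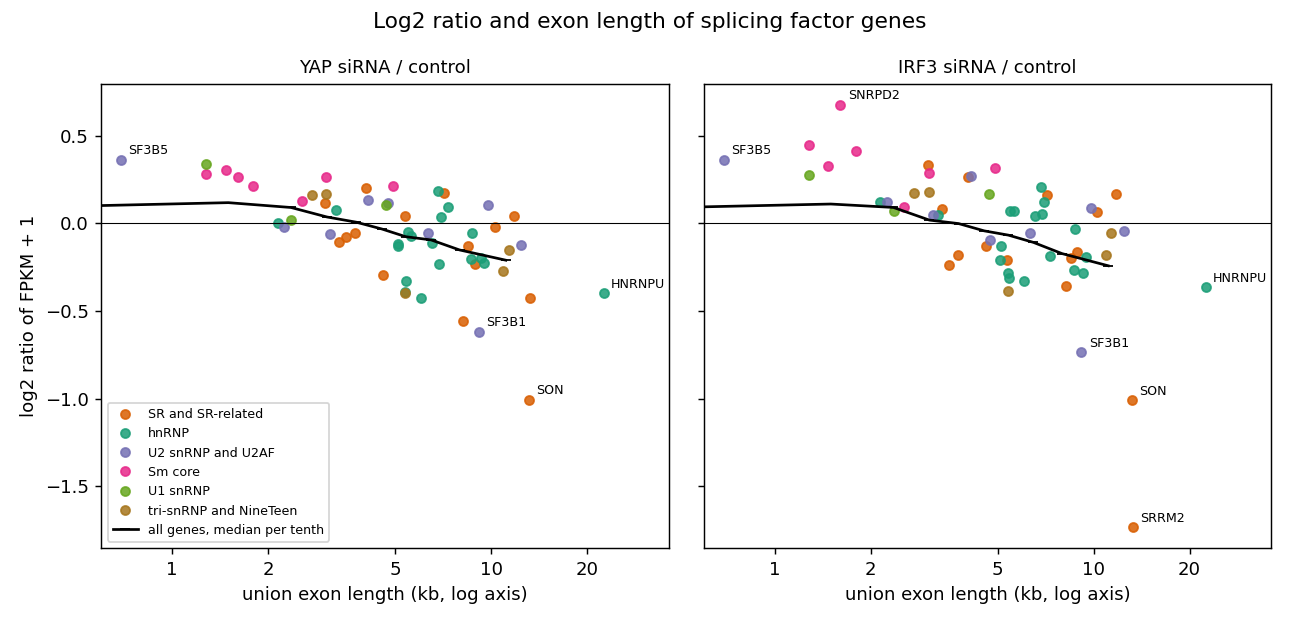
Log2 ratio of FPKM + 1 against union exon length (kb, log axis) for 58 splicing factor genes with YAP siRNA and IRF3 siRNA against control; the black line joins the medians of all genes kept in each of 10 bins of length with equal numbers of genes. Points fall with length, and SRRM2 with IRF3 siRNA (-1.73) lies far below the line.

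Related genes outside the members were taken from lists, and none of those kept by the filter passed 2-fold on the scale of FPKM plus 1. That scale understates changes of low genes, and the filter left some listed genes out. SMG1, left out and picked here for its fall after its values were seen, had 741, 251 and 219 counts with control, IRF3 and YAP siRNA. With counts of overlapping genes summed, PNN passed with IRF3 siRNA, at -1.05. That setting changes the gene length as well as the counts, and their parts were not separated. With the trend removed, 1 of the MATR3 rows passed with IRF3 siRNA, at 1.16. Of all genes kept, 53.4% were below 0 with YAP siRNA and 53.9% with IRF3 siRNA. Of 10 other SR proteins and coactivators, 9 were below 0 with YAP siRNA and 6 with IRF3 siRNA, and 6 and 5 with the trend in length, GC content and level removed. PNN, a speckle-associated splicing protein, had 3.44, 1.27 and 1.60 FPKM with control, IRF3 and YAP siRNA, from 292, 116 and 140 counts. THRAP3 had log2 ratios of -0.50 with YAP siRNA and -0.62 with IRF3 siRNA. Of 5 SR protein kinases, 4 were below 0 with each siRNA, and 3 with YAP siRNA and 4 with IRF3 siRNA with that trend removed. SRPK2 had -0.52 with YAP siRNA and -0.67 with IRF3 siRNA, and SRPK1 -0.41 and -0.44. Of 28 rows of other hnRNP-type RNA-binding proteins, 25 were below 0 with YAP siRNA and 19 with IRF3 siRNA, and 17 and 13 with that trend removed. MATR3 has a pair of rows there that stood at opposite signs. Their counts with control, IRF3 and YAP siRNA were 1075, 524 and 578 in one and 183, 539 and 372 in the other. The sum over all genes linked to them by shared exons, more than this pair, gave -0.15 with each siRNA. RALY had 0.12 and 0.42.

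For the snRNP partners the direction differed by list. Of 20 U4/U6 and tri-snRNP genes, 15 were above 0 with each siRNA, LSM5 at 0.25 with YAP siRNA and 0.43 with IRF3 siRNA, and LSM4 at -0.54 and -0.23. Of 13 other U1 and U2 genes, 6 were above 0 with YAP siRNA and 8 with IRF3 siRNA. SF3B6, which binds SF3B1 at the branch site, had 0.42 and 0.46, and HTATSF1 had -0.57 and -0.66. Of 23 PRPF19-associated and catalytic-step genes, 12 and 8 were above 0 and 11 and 15 below. With the trend in length, GC content and level removed, 8 and 9 of the 23 were below 0. Of 10 exon junction complex genes, 5 and 6 were above 0. MAGOH stood at 0.47 and 0.57, but at 0.14 and 0.10 when summed with all genes linked to it by overlapping exons. Of 15 snRNP assembly genes, 10 and 9 were above 0, and of 6 minor spliceosome genes, 2 and 3. With the same trend removed, 5 and 3 of the 20 U4/U6 and tri-snRNP genes were below 0. Of the 13 U1 and U2 genes it was 6 and 4, and of the 10 exon junction complex genes 5 and 4. Of the 15 assembly genes it was 5 and 5, and of the 6 minor spliceosome genes 4 and 3.

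Promoter letters were read for the 53 members with a RefSeq promoter entry (GRCh38.p14), in the 250 bases before the start, on both strands. The TEAD motif GGAATG was found in 7 members, 13.2%, beside 12.5% of the genes kept that have an entry. The interferon response letters (GAAA, any 2 bases, GAAA) were found in 3, 5.66% beside 2.88%. CCAAT was found in 24, 45.3% beside 42%, TATAAA in 7, 13.2% beside 6.48%, and the ETS motif CCGGAAGT in 12, 22.6% beside 8.71%. Over all 35116 windows the ETS motif was found in 3.42%. A match is a description of letters and not a bound site. The stretches of 4 windows that lie outside annotated exons are shown with those letters in capitals: HNRNPL and HNRNPA0 hold TEAD and CCAAT letters, PRPF6 holds the ETS letters, and SF3B1, lower with both siRNAs, holds none. They lie at chr19:38852348-38852597 (minus strand), chr5:137754377-137754613 (minus), chr20:63980882-63981131 (plus) and chr2:197435094-197435343 (minus). For SRRM2 and SON no stretch of the window lies outside annotated exons, and none is printed. In their whole windows SON and SRRM1 held TEAD and CCAAT letters, and SRRM2 held none of these motifs.
HNRNPL: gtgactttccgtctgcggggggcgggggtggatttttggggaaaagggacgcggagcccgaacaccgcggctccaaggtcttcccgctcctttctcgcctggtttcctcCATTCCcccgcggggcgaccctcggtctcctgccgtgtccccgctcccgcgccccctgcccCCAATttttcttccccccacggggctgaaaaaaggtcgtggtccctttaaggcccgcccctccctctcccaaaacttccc
HNRNPA0: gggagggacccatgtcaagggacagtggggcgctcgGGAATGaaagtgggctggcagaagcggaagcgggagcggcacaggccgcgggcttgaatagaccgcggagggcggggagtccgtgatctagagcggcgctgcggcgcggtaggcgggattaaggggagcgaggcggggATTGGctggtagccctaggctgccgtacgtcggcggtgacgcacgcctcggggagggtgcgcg
PRPF6: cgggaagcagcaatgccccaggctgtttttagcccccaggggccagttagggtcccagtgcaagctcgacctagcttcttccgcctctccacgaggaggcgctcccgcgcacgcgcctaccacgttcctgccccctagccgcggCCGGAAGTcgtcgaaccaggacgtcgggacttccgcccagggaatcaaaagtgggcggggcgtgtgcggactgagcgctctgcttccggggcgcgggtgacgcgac
SF3B1: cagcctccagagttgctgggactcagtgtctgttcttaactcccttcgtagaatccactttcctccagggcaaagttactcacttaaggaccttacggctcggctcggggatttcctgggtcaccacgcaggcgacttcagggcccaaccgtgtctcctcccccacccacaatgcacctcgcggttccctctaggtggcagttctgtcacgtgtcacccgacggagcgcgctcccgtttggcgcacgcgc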

How the data were processed

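RNA of 3 HGC-27 cultures, 1 library per siRNA, was sequenced. Alignment used TopHat2 2.0.9 and build hg38 (per the submitters' processing notes). No counter, annotation release or strand setting is given in the sources used here. Per the file headers, the authors deposited raw counts and FPKM for every library. Of 45223 nonzero FPKM values checked, 100% matched, to within 1%, the FPKM recomputed from the counts. The recomputation took the length of each gene from its own FPKM in the library with its highest count. The match therefore shows that 1 length per gene and the library totals were used, but not which length.

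The members and lists were chosen with earlier results of these data known. Log2 ratios used FPKM plus a pseudocount of 1, which understates changes of low genes, over genes with a mean of at least 1 FPKM. Genes past 2-fold and 1.5-fold were counted, a rule of size without a test. Count ratios were scaled by library totals with 95% exact Clopper-Pearson intervals. Such intervals cover counting error only and leave out variation between cultures. As PCR copies are not independent molecules, the intervals may be too narrow even for that error. Members past 1.5-fold, the 2 largest and 2 smallest of each class per comparison, those moved by over 0.3 by summing, the 5 highest and 5 lowest by control level, up to 2 genes per direction from each related list, IRF3 and YAP1 could be named; other members, and VIM and U2AF1L5, were named after their values were seen.

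Exon length, GC content and overlaps came from GENCODE on hg38; 55 of 59 members had identical coordinates, and 26 share exon sequence with another gene. Alternatives were a pseudocount of 0.1, a 5 FPKM filter, no filter, median centring, CPM scaled by edgeR 4.0.16 TMM or DESeq2 1.42.0 size factors, protein-coding genes only, summed overlapping genes, and spline trends (4 df) removed. Summing took in every gene linked by a chain of shared exons on either strand, so also genes that overlap only a partner. It also put the GENCODE exon length of the combined genes in place of the authors' length, so genes without overlaps moved too. SRRM1, which overlaps no other gene, went from -0.55 to -0.63 with YAP siRNA. The calling script was tested on simulated data. Python 3.11.15, numpy 2.4.6, pandas 2.3.3, scipy 1.17.1, patsy 1.0.2 and R 4.3.3 were used.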

Additional observations from a re-analysis of the deposited data

How the results depend on the processing

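No paired analysis was possible because each group holds 1 library. For the same reason no library could be left out. With YAP siRNA the count of members lower past 2-fold went from 1 to 0 with the 5 FPKM filter, median centring, summed overlapping genes and either trend removed, and the count past 1.5-fold from 2 to 1 with the 5 FPKM filter and either trend removed, and to 3, with SRRM1 added, with the pseudocount of 0.1, TMM and DESeq2 size factors. The median log2 ratio of members with YAP siRNA, -0.05, turned to 0.004 with the 5 FPKM filter, 0.0334 with TMM, 0.025 with DESeq2 size factors, 0.0157 after removal of the trend in length, GC content and level and 0.0752 after removal of that in length and GC content alone. With IRF3 siRNA the count lower past 2-fold went from 2 to 1 with the 5 FPKM filter, centring, summing and either trend removed, and the count higher past 1.5-fold from 1 to 0 with either trend removed. Its median, 0.05, went to 0.15 with TMM and 0.16 with DESeq2 size factors. In the direct comparison the count lower past 2-fold went from 1 to 0 with summing. With the 5 FPKM filter the counts of lower members fell as SON was no longer kept, with its ratio unchanged. SON had 7.35 FPKM with control siRNA, 3.15 with IRF3 siRNA and 3.16 with YAP siRNA. The causes of the other shifts were not tested. Counting depth limits U2AF1, and variation between cultures was not measured.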

Other observations

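A few genes that share exon sequence with members had ratios of their own, singled out after their values were seen. HNRNPUL2-BSCL2, an annotated readthrough that shares 2391 bases with HNRNPUL2 on the same strand, had 471 counts with control siRNA, 191 with IRF3 siRNA and 329 with YAP siRNA, log2 ratios against control of -1.17 for IRF3 siRNA and -0.49 for YAP siRNA. HNRNPUL2 itself had -0.31 and -0.33. PLEKHJ1, which shares 398 bases with SF3A2 on the opposite strand, had 464, 833 and 470 counts with control, IRF3 and YAP siRNA, a log2 ratio of 0.58 with IRF3 siRNA, where SF3A2 had 0.05. COX20, which shares 3502 bases with HNRNPU, had -0.39 with IRF3 siRNA and -0.04 with YAP siRNA, where HNRNPU had -0.36 and -0.40. How reads were divided between these pairs was not tested.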
